A study of Mus musculus with 24 samples.

Results

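The mu class of glutathione S-transferases is encoded in the mouse by a run of neighbouring genes, and 7 of them, Gstm1 to Gstm7, were followed here by their symbols in the deposited table of 55450 genes. All 7 were found, each in a single row, and were read in all 24 libraries of the series. RNA had been sequenced from liver, cerebellum and testes of Thumpd1 knockout (KO) mice and of wild-type (WT) mice, with 4 libraries per genotype and tissue. Thumpd1 encodes the adapter that takes the acetyltransferase Nat10 to tRNA, and the question was which transcripts differ when tRNA acetylation is lost. In the KO mice both Thumpd1 alleles carried deletions made by injecting Cas9 and a pair of guides into C57BL/6N fertilized eggs. WT controls were littermates of the same age, all animals were 6 to 12 weeks old, and all were kept on a C57/BL6 background. Several edited lines existed, and the labels do not say which line gave which library. The KO is constitutive, so that all cells of the body lack Thumpd1, and the labels do not tell whether the liver, cerebellum and testes libraries of the same number came from the same mouse.

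Glutathione S-transferases join the thiol of glutathione to reactive compounds, which makes these soluble and ready for export. The mu class works as cytosolic dimers and acts on epoxides, quinones and products of lipid oxidation. In the liver the class belongs to the second phase of drug metabolism, where several of its genes are known to respond to the oxidative stress factor NRF2 and to the xenobiotic receptors CAR and PXR. In testes a member of the class, Gstm5, is known as a protein of germ cells and of the sperm fibrous sheath.

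The 7 genes lay within 149.1 kb of chromosome 3 (mm10, 107895821 to 108044894), in the order Gstm5, Gstm7, Gstm6, Gstm3, Gstm2, Gstm1 and Gstm4. Gstm5 was on the plus strand (107895821 to 107898686) and the other 6 were on the minus strand. Gstm7 ran from 107926334 to 107931817, Gstm6 from 107938847 to 107943749 and Gstm3 from 107963696 to 107969283. Gstm2 ran from 107981702 to 107986453, Gstm1 from 108012255 to 108017973 and Gstm4 from 108040408 to 108044894. The principal transcript of each gene had 8 exons. The coding length was 654 bases in all but Gstm5, which had 672.

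Members of this family are close copies, which bears on how reads could be divided between them. Gstm1 and Gstm3 shared 89.4% of their coding bases, the highest of all pairs, and Gstm5 shared 68.0% to 70.7% with each of the others. The longest identical coding stretches of these pairs are printed because a read that falls inside them cannot be given to either gene from its bases. They came from the GENCODE M21 transcripts, run 5′ to 3′ in the sense of the gene, and hold no marked part. The stretch of Gstm1 and Gstm3 covers coding bases 389 to 500 of both, and that of Gstm3 and Gstm6 covers coding bases 169 to 293 of both.
Gstm1 and Gstm3, 112 bases: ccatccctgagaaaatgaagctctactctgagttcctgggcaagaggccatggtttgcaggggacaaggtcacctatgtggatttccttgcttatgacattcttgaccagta
Gstm3 and Gstm6, 125 bases: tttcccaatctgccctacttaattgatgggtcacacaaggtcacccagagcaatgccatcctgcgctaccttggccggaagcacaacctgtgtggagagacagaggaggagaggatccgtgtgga

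Of the 75-base windows along each principal transcript, 21.6% of Gstm3, 14.8% of Gstm1, 5.47% of Gstm6 and 3.13% of Gstm2 occurred in a transcript of another gene. The other genes were members of the family or annotated pseudogenes (Gm8834, Gstm2-ps1, Gm12494 and Gm12499). Gstm4, Gstm5 and Gstm7 had no such window. The counts show the same division, since a value that is not whole is one that the counting split between genes. Gstm1 had such values in 24 of 24 libraries, Gstm3 in 21 and Gstm6 in 16, against 5 for Gstm2, 1 each for Gstm4 and Gstm7 and 0 for Gstm5. Levels of Gstm1, Gstm3 and Gstm6 are therefore less certain than those of the others, and the 7 were also summed. Gstm5 overlaps exons of 4933431E20Rik on the other strand, and the strand used in counting is not given in the sources used here, so reads from the stretch that both genes cover (107895821 to 107896213) cannot be told apart. Outside it they can, and in WT testes 4933431E20Rik averaged 10.1 CPM against 1385 CPM for Gstm5.

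The stretches before the start sites were read from RefSeq's promoter table (GRCm38.p6), which held all 7 genes. The 2 genes with the largest liver changes, Gstm2 and Gstm3, are printed beside Gstm5, the leading member in testes and the 1 member that held a searched motif. RefSeq's starts lie inside the GENCODE genes, by 33 bases in Gstm2 and Gstm5 and by 109 in Gstm3. Each run therefore goes from 150 bases before the RefSeq start up to the GENCODE gene, on the gene's own strand, and capitals mark the antioxidant response element core. The positions are chr3:107986454-107986570 for Gstm2 (minus strand), chr3:107969284-107969324 for Gstm3 (minus strand) and chr3:107895704-107895820 for Gstm5 (plus strand).
Gstm2: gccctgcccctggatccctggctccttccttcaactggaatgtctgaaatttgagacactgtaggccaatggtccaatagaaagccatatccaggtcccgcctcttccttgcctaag
Gstm3: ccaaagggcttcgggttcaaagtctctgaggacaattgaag
Gstm5: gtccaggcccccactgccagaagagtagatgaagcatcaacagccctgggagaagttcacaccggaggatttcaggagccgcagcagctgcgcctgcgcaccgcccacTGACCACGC

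The motifs, 3 in number, were searched on both strands of the 300 bases around each RefSeq start. The antioxidant response element core TGACNNNGC, the NRF2 motif, was found in 12.4% of 32851 promoters, the AP-1 heptamer TGACTCA in 5.20% and the C/EBP-ATF response element core TGATGNAA in 3.97%. Gstm5 held TGACCACGC with its first base at -42 from the RefSeq start and TGACTCA at -176. None of the other 6 promoters held any of these letters in this window, and no member held TGATGNAA.

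Total counts were 16353797 to 37889615 per library. Levels are given as CPM, counts scaled to a common library total. In liver the KO libraries 5 and 6 were the shallowest, with 19958739 and 18145725 counts. Rn7s1, Rn7s2, Rn7sk, Gm26917, Gm42418 and Rpph1, abundant noncoding RNAs, together held 17.5% to 31.0% of the liver counts, and in WT library 4 of liver Gm42418 alone held 9.33%. Thumpd1 was at 0 to 4 counts in the KO libraries of liver and cerebellum. It was at 23 to 41 counts in those of testes, against 740 to 846 in WT testes. Uty, Kdm5d, Eif2s3y and Ddx3y, which lie on the Y chromosome, together reached 56.7 CPM or more in each library, and Xist stayed at or below 4.53 CPM, although the study describes mice of either sex. Hepatocyte, granule cell and spermatid markers were highest in the tissues whose names they go with.

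The family was read at different levels and by different members in each WT tissue. On a per-length scale (CPM per kb of the principal transcript), Gstm1 led in WT liver with 1207 ± 139 (SD, n = 4), and held 82.4% of the family's level. Gstm6 (67.1 ± 5.91), Gstm2 (56.1 ± 4.93), Gstm3 (48.6 ± 5.40), Gstm4 (43.0 ± 5.90) and Gstm7 (39.3 ± 3.48) followed, and each of these overlapped the next in the order. Their order also changed when the length of all exons was used, where Gstm3 came second. Gstm5 was last in WT liver, at 3.63 ± 0.466, below all the others without overlap. Gstm1 transcripts thus outnumbered each of the others in liver by more than the spread between libraries.

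In WT testes Gstm5 led, with a level of 1465 ± 51.6 CPM per kb and 69.3% of the family. Gstm1 was the second, at 373 ± 32.4, and Gstm2 the third, at 206 ± 10.3, with no overlap between neighbours. Gstm7 (35.5 ± 4.21) and Gstm6 (31.2 ± 3.69) overlapped each other, and Gstm4 was at 3.95 ± 0.658. Gstm3 lay at 7.46 to 14.5 counts in the WT testes libraries and at 4.28 to 12.1 counts in the KO libraries.

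In WT cerebellum the family was lower in sum, and Gstm1 held 68.6% of it at 86.7 ± 2.03 CPM per kb. Gstm5 held 24.9%, at 31.5 ± 1.44, and Gstm7 came next at 4.70 ± 0.803. Gstm2 (1.52 ± 0.313) and Gstm4 (1.37 ± 0.387) overlapped. Gstm6 was at 7 to 22 counts per library, and Gstm3 at 0 to 3.02 counts in WT and 0 to 4.02 in KO, around the 3 counts taken as the limit that a count of 0 allows, so that no fold against cerebellum is read for it.

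**Figure D1:**
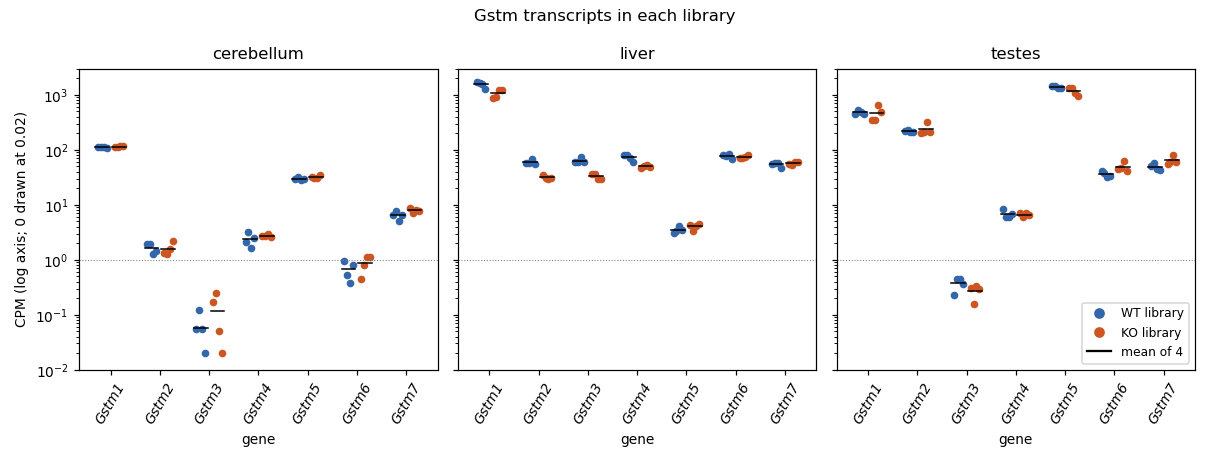
Level of each Gstm gene in the 24 libraries, in CPM on a log axis, by tissue, with WT libraries in blue, KO libraries in orange and the mean of 4 as a line. The dotted line marks 1 CPM and a value of 0 is drawn at 0.02. Gstm1 was the highest gene in liver and cerebellum and Gstm5 in testes, and only in liver do several genes have KO libraries below all WT libraries.

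Differences between WT tissues were tested over all 24 libraries with limma-voom and TMM factors, and p-values were Benjamini-Hochberg adjusted over all genes fitted. TMM scaling lowered the cerebellum against liver values by a median of 1.19 on the log2 scale and the testes against liver values by 0.94, compared with scaling to library totals, so sizes are given on both scales. With TMM all 7 members were called between testes and liver, and the 6 other than Gstm3 were called in both comparisons with cerebellum, as most genes were. Gstm3 passed the threshold there too, but with 3 of 4 WT cerebellum libraries at 3 counts or fewer its fitted value and call are not read. Of all genes fitted, 85.3% were called between WT cerebellum and WT liver, 89.7% between WT testes and WT liver and 89.3% between WT testes and WT cerebellum. Gstm5 was higher in cerebellum than in liver by 1.93 ± 0.249 on the log2 scale (SE, limma adjusted p = 2.45e-07) and by 3.12 with library totals. It was higher in testes than in liver by 7.73 ± 0.228 (limma adjusted p = 3.91e-19), and by 8.66 with library totals. Gstm2 was higher in testes than in liver by 0.94 ± 0.110 (limma adjusted p = 3.62e-08), and by 1.88 with library totals. Between cerebellum and liver its log2 difference was -6.38 ± 0.348, and -5.18 with library totals. Gstm1, Gstm4 and Gstm6 were highest in liver and lowest in cerebellum on both scales, with log2 differences between testes and liver from -2.04 ± 0.108 (Gstm6) to -4.38 ± 0.122 (Gstm4), and -1.11 and -3.44 for these with library totals. Gstm7 had a log2 difference between testes and liver of -1.09 ± 0.104 with TMM, but of -0.15 ± 0.101 with library totals (limma adjusted p = 0.160), and its CPM overlapped between these tissues. Gstm3 was higher in liver than in testes, where it had 7.46 to 14.5 counts per WT library.

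In the liver of KO mice, 4 of the 7 members fell and 3 did not pass the test. Gstm2, Gstm3, Gstm1 and Gstm4 were lower, to between 0.52 and 0.70 times the WT level, whereas Gstm6, Gstm7 and Gstm5 overlapped between the genotypes. Of the 12816 genes tested in liver, 3.12% were called lower, and the median log2 change over all of them was -0.00308, against -0.51 over the 7 members. In liver all 7 members passed the filter of at least 1 CPM in at least 4 libraries. Whether cells held less of these transcripts or fewer cells made them cannot be told apart in bulk tissue.

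Gstm1, the most abundant mu enzyme of the liver, was at 1674, 1655, 1604 and 1291 CPM in WT libraries 1 to 4. It was at 865, 903, 1231 and 1230 CPM in KO libraries 5 to 8. All KO libraries lay below all WT libraries, but WT library 4 came close to KO libraries 7 and 8, and KO libraries 5 and 6 lay well below the other KO libraries. The lowest Gstm1 libraries of each genotype were those with the largest noncoding share, 31.0% in WT library 4 against 17.5% to 23.1% in the other WT libraries, and 27.2% and 26.4% in KO libraries 5 and 6 against 18.8% and 17.5% in KO libraries 7 and 8. Its part in the level of Gstm1 was not tested. The log2 change from WT to KO was -0.54 ± 0.0817 (SE), with a limma adjusted p of 0.00457. In limma-voom with TMM it was -0.569 ± 0.105 (limma adjusted p = 0.0108). With the 6 abundant noncoding RNAs left out of that fit it was -0.569 ± 0.103 (limma adjusted p = 0.0102).

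Gstm2 was at 58.5, 58.3, 67.2 and 54.9 CPM in the WT livers and at 34.3, 31.0, 29.6 and 30.8 CPM in the KO livers. The groups were far apart compared with their spread, and no library stood between them. The log2 change was -0.91 ± 0.0894 (limma adjusted p = 0.000443).

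Gstm3 was at 60.6, 60.5, 74.3 and 59.4 CPM in the WT livers, where library 3 stood above the rest. In the KO livers it was at 35.9, 36.1, 29.9 and 29.9 CPM, with libraries 5 and 6 above 7 and 8, the reverse of Gstm1. The log2 change was -0.94 ± 0.113 (limma adjusted p = 0.00179). As Gstm1 and Gstm3 share reads, their split within a library is the less certain part of both values.

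Gstm4, which shared no window with another gene, was at 81.0, 81.3, 71.0 and 60.02 CPM in the WT livers and at 46.2, 51.7, 53.9 and 48.6 CPM in the KO livers. Library 4 was again the lowest of WT, and the groups did not overlap. The log2 change was -0.51 ± 0.0711 (limma adjusted p = 0.00327).

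Gstm6 was at 80.3, 77.5, 83.9 and 68.0 CPM in the WT livers and at 69.9, 72.0, 73.8 and 79.0 CPM in the KO livers. Gstm7 was at 55.2, 57.1, 57.2 and 47.1 CPM in WT and at 54.6, 52.5, 61.1 and 61.2 CPM in KO. Gstm5, at 92 to 130 counts in WT and 61 to 158 in KO, had 3.01 to 4.04 CPM and 3.36 to 4.46 CPM. WT and KO libraries overlapped for each of these genes. The log2 changes were -0.03 ± 0.0605 for Gstm6 (limma adjusted p = 0.809), 0.13 ± 0.0613 for Gstm7 (limma adjusted p = 0.228) and 0.21 ± 0.147 for Gstm5 (limma adjusted p = 0.428).

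The 4 members that fell were also the 4 whose libraries did not overlap between the groups, a state shared by 12.7% of all genes tested in liver. Along the chromosome they lay side by side, from Gstm3 to Gstm4, with Gstm6, Gstm7 and Gstm5 on the other side of Gstm3. Within each library, the summed CPM of Gstm1 to Gstm4 was 12.7 to 13.8 times that of Gstm6 and Gstm7 together in WT livers. It was 7.88 to 9.97 times in KO livers, a ratio that does not depend on the library total and that was chosen after the values were seen. The ratio sets the members called in liver over members that were not. Gstm1, at 1556 CPM on average in WT livers, made up most of its first sum. In liver the sum of Gstm1 to Gstm4 was 1465 to 1874 CPM in WT against 981 to 1345 CPM in KO, and that of Gstm6 and Gstm7 was 115 to 141 CPM against 124 to 140 CPM. In testes the ratio was 7.36 to 9.13 in WT and 5.33 to 7.02 in KO, where Gstm6 and Gstm7 summed to 76.3 to 94.0 CPM in WT against 101 to 142 CPM in KO, and Gstm1 to Gstm4 overlapped (668 to 775 CPM against 553 to 992 CPM). In cerebellum the ratios overlapped, since the lowest in WT was 14.5 and the highest in KO was 14.7. Summed over the 7 genes, the family was at 1583 to 2013 CPM in WT livers and 1110 to 1484 CPM in KO livers.

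**Figure D2:**
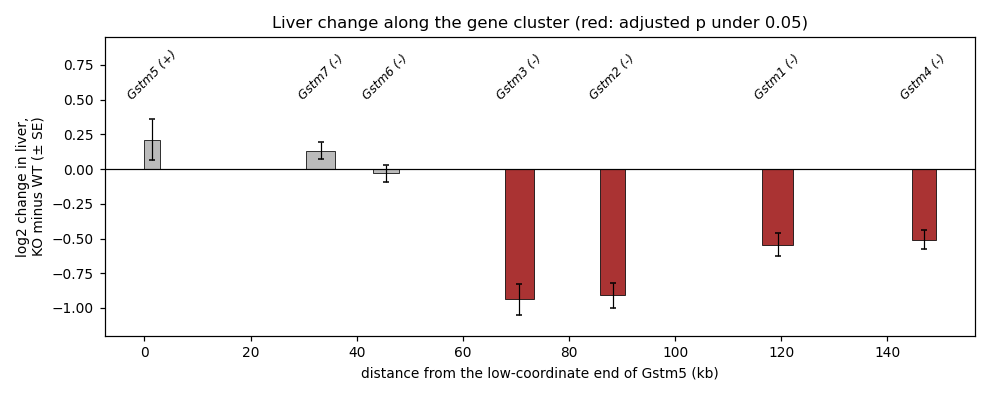
Log2 change in liver (KO minus WT, bar, with the SE as a line) of the 7 genes placed by their distance in kb from the low-coordinate end of Gstm5, with bar width equal to gene length and the strand after the name. Red bars have a limma adjusted p under 0.05. The 4 red bars, Gstm3, Gstm2, Gstm1 and Gstm4, are neighbours and lie between -0.94 and -0.51, and the 3 grey bars lie between -0.03 and 0.21.

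The calls did not rest on a single library. With any 1 of the 8 liver libraries left out, 4 members were still called, and with KO libraries 5 and 6 left out together Gstm1 changed by -0.39 ± 0.0525 and Gstm3 by -1.10 ± 0.114. With 1 quantile fit over all 24 libraries, the change of Gstm1 was -0.32 ± 0.167 and its limma adjusted p was 0.296, while Gstm2, Gstm3 and Gstm4 stayed called.

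Across the 8 liver libraries, Gstm2 and Gstm3 followed each other most closely of all pairs of members (Pearson r of log2(CPM + 1) = 0.99), and Gstm5 and Gstm4 ran most against each other (r = -0.70). Outside the family, the 5 genes with the pattern most like Gstm1 were Pdia5, Ptk2b, Anxa6, Zmiz2 and Rcc2, with r from 0.988 to 0.995. These values describe 8 libraries that share 2 genotypes and differ in depth and in the share of abundant noncoding RNAs, and they carry no test. The CPM used was formed from totals that hold these RNAs. Their log2 changes in KO liver, whose sign the choice by likeness to Gstm1 sets, ran from -0.30 to -0.22.

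**Figure D3:**
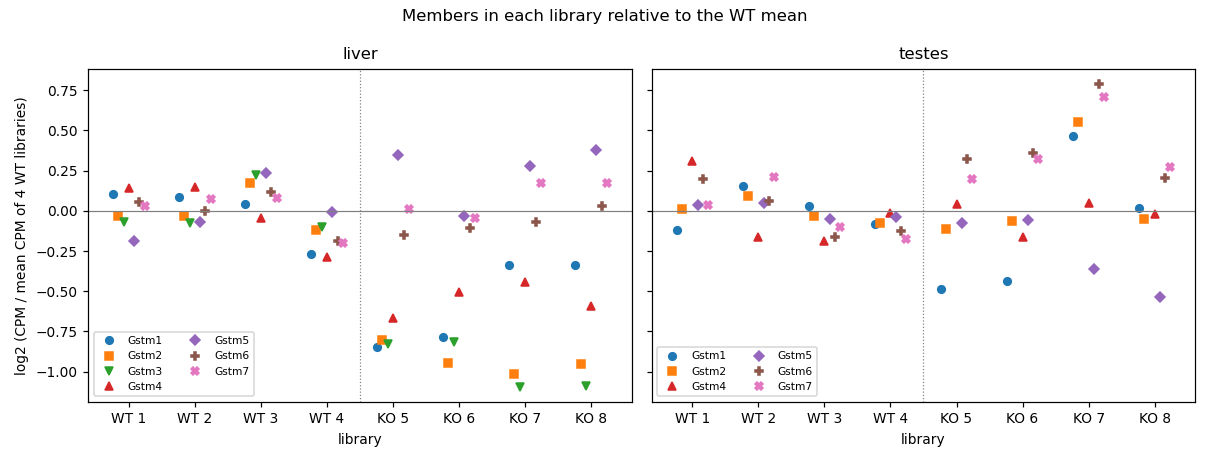
CPM of each gene in each library of liver and testes as log2 of its ratio to the mean of the 4 WT libraries, with WT libraries left and KO libraries right of the dotted line. Gstm3 is left out in testes, where its counts are few. In liver Gstm1 to Gstm4 lie below all WT libraries in each KO library, with Gstm1 lower in KO libraries 5 and 6 than in 7 and 8, and in testes KO library 7 is the highest for Gstm1, Gstm2, Gstm6 and Gstm7.

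In the cerebellum no member was called between KO and WT. The 5 members that passed the filter, Gstm1, Gstm2, Gstm4, Gstm5 and Gstm7, had 0 calls by limma, edgeR and DESeq2 alike and 0 unadjusted p-values under 0.05. Among all 16225 genes tested there, 6.44% were called and 3929 had such a p. Gstm1, the main mu gene of the tissue, was at 112, 115, 111 and 108 CPM in WT and at 114, 111, 117 and 117 CPM in KO. These libraries overlapped, and the log2 change of 0.04 had an SE of 0.0352 (limma adjusted p = 0.546). Gstm5 was at 28.6 to 31.7 CPM in WT and 30.2 to 34.6 CPM in KO, with a log2 change of 0.09 ± 0.0548. Gstm7 had the largest value in the main fit, 0.25 ± 0.122, with 5.06 to 7.76 CPM in WT and 7.03 to 8.82 CPM in KO (limma adjusted p = 0.227). With 1 library left out Gstm7 ranged from 0.158 to 0.347 and Gstm4 from 0.0586 to 0.355. Gstm4 (0.19 ± 0.184) and Gstm2 (-0.11 ± 0.215) had 21 to 79 counts per library, and their SEs were the largest of the 5 at this depth. In cerebellum, granule and Purkinje cell genes gave 1 call higher and 4 lower among 10. Astrocyte genes gave 3 higher among 11 and oligodendrocyte genes 2 higher among 8. Choroid plexus genes gave 0 calls among 7 and summed to 17.8 to 1085 CPM in WT and 22.4 to 364 CPM in KO. Their part in the Gstm values was not tested.

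In testes 1 of the 6 tested members, Gstm7, was called, and it was called higher. It was at 50.1, 56.5, 45.6 and 43.4 CPM in WT and at 56.1, 61.1, 79.8 and 59.2 CPM in KO, so that KO library 5 lay just under WT library 2 and KO library 7 stood above all others. The log2 change was 0.34 ± 0.109 with a limma adjusted p of 0.0493, and 9.74% of the 19329 genes tested in testes were called higher. This call was close to the threshold: it was lost without WT library 1, 3 or 4 or KO library 6, 7 or 8, with limma adjusted p-values of 0.0563 to 0.140. It was also lost with TMM in place of quantile normalization (0.0505) and without a filter on low values (0.0776). Without KO library 7 the log2 change of Gstm7 was 0.23.

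Gstm6 had a change of similar size and missed the threshold. It was at 41.3, 37.5, 32.2 and 32.9 CPM in WT testes and at 45.03, 46.1, 62.3 and 41.4 CPM in KO testes, and the groups did not overlap, although KO library 8 was only just above WT library 1. The log2 change was 0.36 ± 0.120 (limma adjusted p = 0.0517). It passed the threshold under 8 of 16 alternatives, with adjusted p-values from 0.00270 to 0.139 over all of them. Without KO library 7 the log2 change of Gstm6 was 0.24 (limma adjusted p = 0.0923).

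Gstm5, the leading member in testes, was at 1418, 1434, 1336 and 1350 CPM in WT and at 1313, 1332, 1079 and 954 CPM in KO. The KO libraries lay below all WT libraries, libraries 5 and 6 narrowly and 7 and 8 by more. The log2 change in the main fit was -0.18 ± 0.0981 and was not called (limma adjusted p = 0.208). With 1 library left out the change ranged from -0.245 to -0.0730, the last without KO library 8. It was called with edgeR (-0.31, adjusted p = 0.0419), DESeq2 (-0.31, adjusted p = 0.0151) and limma-voom with TMM (-0.32, adjusted p = 0.0313). With sample quality weights the value was 0.00147 (limma adjusted p = 0.988). Gstm5 and Gstm6 were the 2 members without overlap between WT and KO testes, a state held by 28.6% of the genes tested there.

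Gstm1 in testes ranged from 443 to 536 CPM in WT and was at 343, 355, 664 and 487 CPM in KO, below WT in libraries 5 and 6 and above it in library 7. Gstm2 was at 208 to 233 CPM in WT and at 203, 210, 321 and 211 CPM in KO, where library 7 alone stood apart. The log2 changes were -0.03 ± 0.188 for Gstm1 and 0.13 ± 0.134 for Gstm2, and without KO library 7 they were -0.26 for Gstm1 and -0.04 for Gstm2. With sample quality weights Gstm1 was called lower (-0.32 ± 0.0992, limma adjusted p = 0.0271). Gstm4 was at 5.92 to 8.35 CPM in WT and 6.01 to 6.96 CPM in KO (-0.12 ± 0.113). Without WT library 1, the one at 8.35 CPM, the change of Gstm4 was -0.03.

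Markers of other cell types moved in the same testes libraries. Of all genes tested there, 9.74% were called higher and 10.7% lower. Of 13 Sertoli cell genes 11 were called higher in KO and 0 lower, with a summed level of 1236 to 1413 CPM in WT and 1614 to 2259 CPM in KO. Of 14 spermatid genes 8 were called lower and 0 higher, with a summed level of 13163 to 13827 CPM in WT and 9709 to 12182 CPM in KO. Of 9 spermatocyte genes 0 were called. Of 10 Leydig cell genes 3 were called higher and 1 lower, and their sum was 1159 to 1260 CPM in WT and 1071 to 1713 CPM in KO. No Sertoli or spermatid marker was at 3 counts or fewer in WT or KO testes, and the Sertoli list also summed to 1192 to 1546 CPM in liver. Their part in the values of Gstm5, Gstm6 and Gstm7 was not tested.

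**Figure D4:**
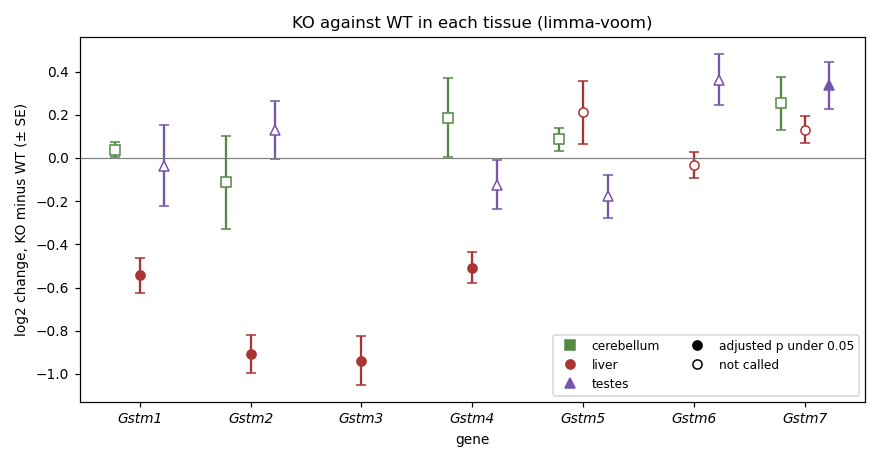
Log2 change from WT to KO (± SE) of each gene in cerebellum (squares), liver (circles) and testes (triangles), from limma-voom fits of 8 libraries per tissue. Filled symbols have an adjusted p under 0.05, and genes under the filter in a tissue are not drawn. The 4 filled liver points lie between -0.94 and -0.51, 1 testes point (Gstm7, 0.34) is filled, and no cerebellum point is.

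Whether the KO effect differed between tissues was tested over all 24 libraries for the 5 members that passed the filter in all 3 tissues, which leaves out Gstm3 and Gstm6. Between cerebellum and liver, Gstm4 differed (0.76 ± 0.211, limma adjusted p = 0.0266) and Gstm1, with a difference of 0.58 ± 0.188, did not pass (limma adjusted p = 0.0566), where 7.67% of 11112 genes were called. Between testes and liver, Gstm2 differed (0.88 ± 0.136, limma adjusted p = 0.000182), where 15.9% of genes were called. Gstm5 had a difference of -0.67 ± 0.239 there and did not pass (limma adjusted p = 0.0563), but was called with library totals in place of TMM factors (-0.61, limma adjusted p = 0.0449). For Gstm2 the difference between cerebellum and liver was 0.86 ± 0.350 and was not called (limma adjusted p = 0.127). Between testes and cerebellum, Gstm5 differed (-0.48 ± 0.146, limma adjusted p = 0.0297), where 14.5% of genes were called, and without testes KO library 7 or any of 4 cerebellum libraries (WT 1, 3 and 4 and KO 8) no member was called. No member was called there with the replicate number fitted as a block either. The call of Gstm4 was lost without cerebellum WT library 1 or 3 or KO library 5 or 7. With library totals in place of TMM factors neither Gstm4 between cerebellum and liver (0.74, limma adjusted p = 0.104) nor Gstm5 between testes and cerebellum (-0.40, limma adjusted p = 0.0599) was called, and Gstm2 between testes and liver was (0.92, limma adjusted p = 0.000452).

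Other glutathione S-transferases were counted in the same way, as were the lists that follow. Of all genes tested, 5.91% were called in liver (2.79% higher and 3.12% lower) and 20.5% in testes (9.74% higher and 10.7% lower). In cerebellum 6.44% were called (3.93% higher and 2.51% lower), and list counts are read against these shares. Of the 17 tested in liver, 3 were called lower and 0 higher, with a median log2 change of -0.13. Gsta1, an alpha class enzyme, had the largest fall, of -1.59 ± 0.286 (7.07 to 2.71 CPM on average, limma adjusted p = 0.0104). Gstt3, of the theta class, changed by -0.50 ± 0.0733 (limma adjusted p = 0.00416) and Gsta2 by -0.40 ± 0.0699 (limma adjusted p = 0.00920). In cerebellum 1 of 14 other transferases was called, Gsto1, which was higher by 0.40 ± 0.0828, and in testes 3 of 18 were called lower, Gsta3 (-0.63 ± 0.111), Gstcd (-0.29 ± 0.0629) and Gsto2 (-0.19 ± 0.0606), where 10.7% of all genes were.

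Enzymes that make and use glutathione gave 1 call higher and 2 lower among 18 tested in liver. Gclc, the catalytic subunit of the enzyme that starts glutathione synthesis, was higher by 0.28 ± 0.0566 (limma adjusted p = 0.0181). Ggt6, of the gamma-glutamyltransferase family, fell by 0.77 ± 0.0881 and Slc3a2, the heavy chain of the cystine transporter, by 0.34 ± 0.0825. In cerebellum, where 3.93% of all genes were called higher, 2 of 20 rose, Chac1, a glutathione-degrading enzyme, by 1.19 ± 0.137 and Slc3a2 by 0.23 ± 0.0431. In testes 4 of 20 fell, Ggt7 (-0.42 ± 0.103), the glutaredoxin Glrx2 (-0.32 ± 0.0893), the oxoprolinase Oplah (-0.26 ± 0.0686) and the lipid peroxide reductase Gpx4 (-0.23 ± 0.0716).

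Genes known as NRF2 targets gave 2 calls higher and 5 lower among 27 tested in liver, with a median log2 change of -0.18. The largest falls among called genes were those of Ephx1, the microsomal epoxide hydrolase (-0.48 ± 0.0894), the exporter Abcc3 (-0.45 ± 0.114), the ferritin light chain Ftl1 (-0.41 ± 0.0802) and the transketolase Tkt (-0.30 ± 0.0559), with 1 more of smaller change. Abcc4 (-0.99, limma adjusted p = 0.0526) and Me1 (-0.62, limma adjusted p = 0.0523) had larger values and just missed the threshold. The 2 called higher were Gclc (0.28 ± 0.0566) and Prdx1 (0.24 ± 0.0589). Osgin1 had a rise of 0.40 that was not called (limma adjusted p = 0.0770). Nqo1, often read as the marker of this pathway, averaged 3.56 CPM in WT against 2.94 CPM in KO and was not called (limma adjusted p = 0.643). Like Abcc4, Me1, Gclc, Prdx1 and Osgin1, it was named here after the values were seen. Of NRF2 and its 9 partners and regulators, 1 was called in liver, the small Maf protein Maff, which was higher by 1.34 ± 0.178. In testes Mafg (0.36 ± 0.109) and Nfe2l1 (0.29 ± 0.0907) were called higher and Keap1 lower (-0.20 ± 0.0575), and in cerebellum Mafg was called lower (-0.28 ± 0.0507). In testes 3 of 28 targets were called higher, Abcc1 (0.54 ± 0.117), Akr1b8 (0.33 ± 0.0839) and Aox1 (0.29 ± 0.0791), and Srxn1 lower (-0.57 ± 0.0741). Of all genes tested there 9.74% were called higher and 10.7% lower, so the count of targets called higher was near the share of all genes. In cerebellum Tkt was called higher (0.19 ± 0.0448) and Aox1 lower (-0.35 ± 0.0815) among 23, where 3.93% of all genes were called higher and 2.51% lower.

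The genes known to be induced through CAR, PXR and AHR gave 5 calls higher and 0 lower among 12 tested in liver, with a median log2 change of 0.25. Cyp2b10, the standard CAR target, averaged 8.29 CPM in WT against 19.97 CPM in KO (1.28 ± 0.163, limma adjusted p = 0.00226). Cyp3a11, the standard PXR target, rose by 0.64 ± 0.111, the sulfotransferase Sult1d1 by 0.98 ± 0.146 and Cyp2b9 by 3.02 ± 0.767. Of the 9 receptor genes and partners tested in liver, Por, the reductase that feeds electrons to cytochromes P450, was the 1 called, and it was lower (-0.57 ± 0.0763, limma adjusted p = 0.00276). In testes Ahr (0.57 ± 0.152) was called higher among 5 tested and the target Sult1e1 (0.53 ± 0.126) among 5, and in cerebellum the target Slco1a4 (0.20 ± 0.0556) among 3.

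**Figure D5:**
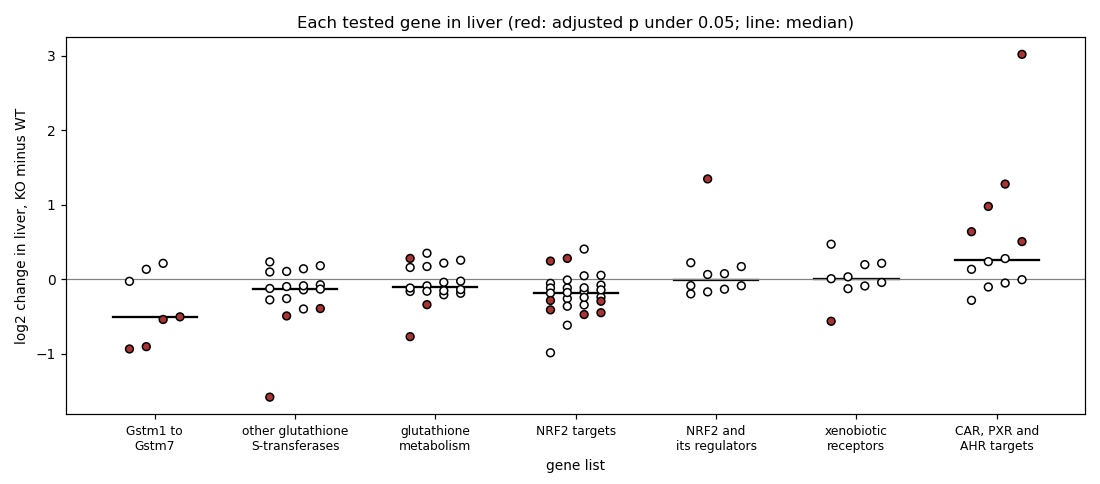
Log2 change in liver (KO minus WT) of each tested gene in the Gstm family and in 6 lists, with called genes (limma adjusted p under 0.05) in red and the median as a line. The family has 4 red points and a median of -0.51, the NRF2 targets 7 red points and a median of -0.18, and the CAR, PXR and AHR targets 5 red points, all above 0, and a median of 0.25.

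Liver cell type lists were read beside these values. Of 16 pericentral genes 3 were called lower and 1 higher, of 13 periportal genes 2 lower and 1 higher, and of 8 hepatocyte genes 1 lower and 2 higher. The summed level of the pericentral genes was 7326 to 8880 CPM in WT and 7135 to 9216 CPM in KO. A list of smooth muscle and endothelial genes, written as markers of testis peritubular cells and vessels, gave 4 calls lower and 0 higher among 6 tested in liver, with a median log2 change of -0.56. These were Acta2 (-1.14 ± 0.191), Myh11 (-0.93 ± 0.233), Vwf (-0.60 ± 0.116) and Tagln (-0.52 ± 0.134), and the list summed to 71.6 to 85.1 CPM in WT and 61.1 to 77.6 CPM in KO livers. Kupffer cell genes gave 0 calls among 8 tested, and endothelial and stellate genes gave 1, Col1a1, which was lower (-1.03 ± 0.145). Cholangiocyte genes gave 0 calls among 2 tested. Male-biased liver genes gave 1 call in each direction, Mup20 (0.69 ± 0.1004) and Cyp4a12b (-1.53 ± 0.256), and female-biased genes gave 1, Cyp2b9. Their part in the liver values of Gstm1 to Gstm4 was not tested.

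Genes around the cluster were counted in the same fits. Of 30 other genes annotated within 200 kb of it, 9 were tested in liver and 1 was called, Ampd2, an AMP deaminase. It fell by 0.29 ± 0.0637 (43.1 to 34.7 CPM, limma adjusted p = 0.0249). In testes 11 were tested and 3 called, where 20.5% of all genes were, with Gnai3 higher (0.27 ± 0.0667) and Eps8l3 (-0.45 ± 0.0594) and Gpr61 (-0.57 ± 0.177) lower, and in cerebellum 0 of 10 were called. In liver 4933431E20Rik, antisense to Gstm5, had a log2 change of -0.00327 ± 0.207.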

How the data were processed

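RNA was read as paired ends on a NovaSeq from libraries of a stranded total RNA kit after ribosomal RNA removal. The authors aligned reads with STAR and deposited RSEM expected counts per gene on mm10, not normalized. The tool versions and the strand setting are not given in the sources used here. The 24 columns were matched to the labels by library name, and 0 columns were left over. CPM was formed from the column totals. Each tissue was fitted apart: genes with at least 1 CPM in at least 4 libraries were quantile normalized with voom and compared with limma 3.58.1 in R 4.3.3, adjusted over all genes (threshold 0.05). Tissue comparisons used TMM factors of edgeR 4.0.16 over 24 libraries, which shifts differences from liver against those in CPM. Rounded counts went into edgeR and DESeq2 1.42.0 as alternatives. The gene models were GENCODE M21. Steps were tested on simulated data. The study describes 4 biological replicates per group, and the labels do not tie libraries to mice. All 36 replicate pairs differed beyond counting noise, so none was merged. The members and lists were chosen with earlier results of these data known. All 7 members are named, and of the pathway lists up to 4 called genes with the largest changes per tissue, beside those said to be named after the values were seen. Alternatives were filters, scaling, quality weights, a replicate block, and each library left out. Figures were drawn with matplotlib 3.10.9.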

Additional observations from a re-analysis of the deposited data

Results flagged for a closer look

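Among the 42 sets of 4 libraries formed by gene, tissue and genotype, 2 held a library far from the other 3. Gstm2 in testes KO library 7 was at 321 CPM, against 203 to 211 CPM in the other KO libraries, and Gstm3 in liver WT library 3 was at 74.3 CPM, against 59.4 to 60.6 CPM. Chance gives such a library in about 1 of 20 sets. Without testes KO library 7 the log2 change of Gstm2 in testes was -0.04, and without liver WT library 3 that of Gstm3 in liver stayed called.

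The KO effect differed between tissues for 3 members by the test of the difference itself in limma. Gstm4 differed between cerebellum and liver by 0.76 on the log2 scale, Gstm2 between testes and liver by 0.88, and Gstm5 between testes and cerebellum by -0.48. Gstm4 and Gstm5 were not called there with library totals in place of TMM factors, and Gstm5 was not called with the replicate number fitted as a block. The first was called in 1 tissue of its pair, liver, and the third in neither of its tissues.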

How the results depend on the processing

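The count of 4 members called in liver was 4 under all alternatives but 1, a single quantile fit over 24 libraries, where it was 3. The 0 calls in cerebellum were 0 under every alternative run. The WT tissue comparisons, with 7 calls each (in both with cerebellum 1 of them is Gstm3, whose call there is not read), gave 7 with 1 library left out, 7 with edgeR, 6 between testes and liver with library totals in place of TMM factors (an alternative added after the data were seen), 5 with the other filter, which left 5 members fitted, and 6 between testes and cerebellum with quantile normalization, where Gstm3 was not called. The count in testes, 1, was 3 with edgeR, 3 with DESeq2 (Gstm5, Gstm6 and Gstm7 in both) and 3 with quality weights (Gstm1, Gstm6 and Gstm7), 2 with limma-voom and TMM, 2 with 1 quantile fit over 24 libraries and 2 without the noncoding RNAs. It was 0 without a filter and 0 with a filter at 0.5 CPM, and ranged from 0 to 2 with 1 library left out. The summed CPM changed in testes by -0.13 on the log2 scale, and by 0.0348 as a row of the limma-voom fit. The cause was not tested.

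For differences of the KO effect, cerebellum against liver gave 1 call, 3 with edgeR, 0 with quantile normalization, 0 with the other filter, 0 with library totals, and 0 to 3 with 1 library left out. Testes against liver gave 1, 2 with edgeR, 2 with library totals, and 1 to 2 with 1 library left out. Testes against cerebellum gave 1, 0 with quantile normalization, 0 with the other filter, 0 with library totals, and 0 to 1 with 1 library left out. With the replicate number as a block these counts were 2, 3 and 0, and the WT comparisons kept 7. Whether same-numbered libraries share a mouse is not known, and the bar set for treating them as pairs was not met: of 24 same-numbered pairs 6 had a correlation over 0.1 and 10 were best with their own number (-0.19 to 0.23). Within a tissue no paired fit could be made, since WT and KO share no number.

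Some signs turned. With 1 library left out, Gstm6 in liver ranged from -0.0508 to 0.0139 (above 0 without WT library 3). In testes Gstm1 ranged from -0.263 to 0.102 (above 0 without WT library 2, KO library 5 or KO library 6) and Gstm2 from -0.0449 to 0.202 (below 0 without KO library 7), and Gstm5 went from -0.18 to 0.00147 with quality weights. Gstm3 in testes against cerebellum went from 2.75 to -0.827 with quantile normalization. Between the KO effects of testes and cerebellum, Gstm7 was 0.0390 with quantile normalization, 0.0600 with the other filter, 0.0460 with library totals and -0.122 to 0.0751 with 1 library left out, and Gstm2 was -0.112 to 0.182 with 1 library left out. Of the values of single members under the alternatives, 1249 kept sign and call, 35 gained a call, 28 lost a call and 21 changed sign. Depth limits Gstm3 outside liver and Gstm6 in cerebellum.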
